A study of Mus musculus with 10 samples.

Results

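Transcripts whose level was higher in ovulated MII oocytes than in GV oocytes of both WT and Patl2-KO mice were examined, and 244 transcript clusters out of 65956 tested on the array met the rule. They were selected on the measured stage difference itself. A cluster had to carry 1 gene symbol other than a Gm number, to be higher at MII by at least 0.8 on the log2 scale in the group means of both genotypes, to have every MII array above every GV array within each genotype, and to reach a mean MII level of at least 7 in both genotypes. Symbols of this kind belonged to 22873 clusters, of which 6546 reached the MII level, and the 244 clusters carried 239 different symbols. A rise below is the MII mean minus the GV mean, and because it chose the members it is described without a test.

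The GV stage is the prophase I arrest with an intact germinal vesicle, and MII is the arrest in metaphase II after ovulation. WT oocytes gave 2 arrays per stage and Patl2-KO oocytes 3. Patl2-KO mice were homozygous for a C57BL/6NTac allele of Patl2, which encodes a putative RNA-binding protein of the oocyte. In this allele 1 exon was deleted by the ubiquitous EIIaCre and a LacZ cassette inserted, so every tissue lacked that exon. The strain of the WT animals is not given in the sources used here. GV oocytes were taken 44 h after 5 UI of PMSG, and per the labels MII oocytes were taken 12 h after 5 UI of HCG, which was given 48 h after PMSG, whereas the study's methods give a slightly later collection and a higher minimum for the MII pools. A pool of 20 to 32 GV or 28 to 46 MII oocytes, freed of follicular cells, made 1 sample. No source used here says which animals a sample came from, so the p-values cover the spread among these pools and no more. With 2 or 3 arrays a group, the precision of every value is limited.

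An oocyte that resumes meiosis makes almost no new RNA. It works from stored transcripts, some of which receive longer poly(A) tails and are translated at maturation, while many others are degraded. A transcript that is stable while the rest decays takes a larger share of the RNA, and a longer tail can also change how well a transcript is copied into cDNA. Here 250 pg of RNA from every pool was labelled, so each rise is relative to the RNA of its own sample. The paper reports less RNA per oocyte at MII than at GV, so a rise can be larger than the change per oocyte. Amounts per oocyte were not examined here. In pooled oocytes, fewer cells with a transcript and less of it per cell cannot be told apart.

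The members included 7 clusters that carry names of the miR-466, miR-467 and miR-669 hairpins, a mouse family rich in UG repeats, and 3 of these were among the 20 largest rises. Sequences are shown for Mir466k and Mir467h, whose mature and hairpin sequences are in the RefSeq sequence table used (GRCm38.p6), because the UG repeats of such hairpins recur elsewhere in the genome and bear on what these clusters measure. The first pair is the mature miRNA, with the seed, bases 2 to 8, in capitals. Mir466k lies at chr3:85467377-85467498 on the + strand and Mir467h at chr9:115381819-115381939 on the + strand.
mmu-miR-466k: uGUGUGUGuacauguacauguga
mmu-miR-467h: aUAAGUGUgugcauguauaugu
The second pair is the hairpin, the longer precursor, with runs of at least 4 UG repeats in capitals.
Mir466k hairpin: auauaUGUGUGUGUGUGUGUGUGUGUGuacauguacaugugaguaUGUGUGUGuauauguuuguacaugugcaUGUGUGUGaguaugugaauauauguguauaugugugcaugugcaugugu
Mir467h hairpin: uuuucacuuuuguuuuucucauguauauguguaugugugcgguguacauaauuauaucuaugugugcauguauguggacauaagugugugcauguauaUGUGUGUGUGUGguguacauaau
The seeds differ, GUGUGUG against UAAGUGU. The hairpins hold 37 and 25 UG dinucleotides in 122 and 121 bases, with a longest UG run of 22 and 12 bases.

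Mir466d had the largest WT rise of all members, with 5.49 and 5.34 in WT GV, 9.19 and 7.95 in WT MII, 5.61, 5.34 and 5.53 in Patl2-KO GV, and 7.53, 7.39 and 6.91 in Patl2-KO MII oocytes. GV arrays of both genotypes lay below the level at which 90% of the negative control probes fell, 6.14 to 6.46 by array, and WT MII arrays were the highest and the most spread. Mir466f-3 went from 7.79 and 7.57 to 10.32 and 9.40 in WT, and from 7.24, 7.74 and 7.75 to 9.46, 9.50 and 9.14 in Patl2-KO oocytes. Mir669m-2 was the most abundant of them, at 12.59 to 12.89 in WT MII and 12.37 to 12.83 in Patl2-KO MII oocytes. In WT and in Patl2-KO respectively, the rises were 1.61 and 1.26 for Mir466o, 1.66 and 1.22 for Mir467h, 1.04 and 1.03 for Mir466f-4, and 1.41 and 0.88 for Mir466k. All 7 had the larger rise in WT oocytes, and on all 7 WT MII replicate 1 was the highest array. Of all 83 clusters with names of this family, 11 had MII above GV without overlap in both genotypes and 8 below. Over all clusters tested these shares were 6.4% and 10.5%. Of the 83 clusters with such names, 21 reached the MII level, and the median rises of the 83 were 0.22 in WT and -0.09 in Patl2-KO. These names are uncertain, because Mir466f-3, Mir466d and Mir669m-2 each name another cluster too, whose rise was -0.30, -0.24 and 0.32 in WT, and because Mir466f-3, Mir466o and Mir669m-2 lie on chromosomes 14, 12 and X while RefSeq places the genes on chromosome 2.

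Over all 244 members the rise ranged from 0.80 to 3.15 in WT (median 1.06) and from 0.80 to 2.73 in Patl2-KO oocytes (median 1.14), against medians of 0.11 and 0.08 over the 6546 named clusters at the MII level. The smaller of the rises reached 1, a doubling relative to the RNA of the sample, in 109 members, 1.5 in 26 and 2 in 2. Arrays of MII and GV were apart by at least 0.3 in both genotypes in 223 members. Over all clusters tested, 6.4% had every MII array above every GV array in both genotypes and 10.5% every MII array below, and the members were chosen on this separation, so nothing is read from theirs. The same conditions turned round, a fall of at least 0.8 from a GV level of at least 7, were met by 802 clusters. Members covered the range of levels, with WT MII means from 7.25 to 15.96, 73 members at 12 or more and 22 at 14 or more in both genotypes. At GV, 19 members had a mean below 7 in at least 1 genotype, and the others had a mean of at least 7 in both. That level is not far above the 6.14 to 6.46 under which 90% of the negative control probes fell.

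**Figure D1:**
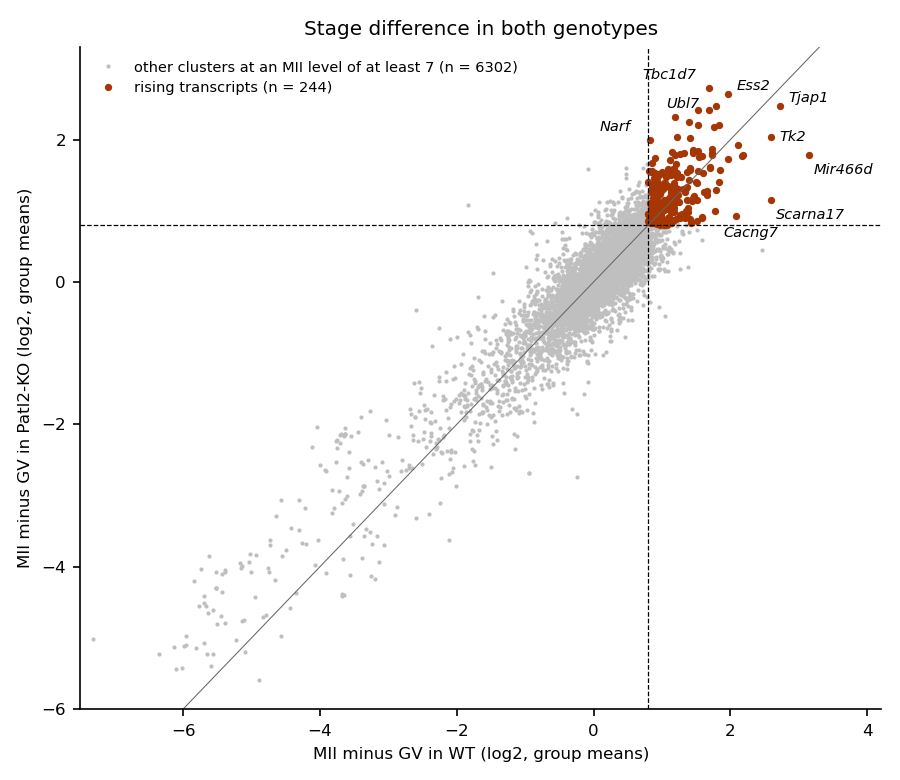
MII minus GV difference of the group means (log2) in WT on the x axis and in Patl2-KO on the y axis, for the 244 rising clusters (brown) and the other named clusters at an MII level of at least 7 (grey); dashed lines mark 0.8 and the thin line marks equal rises. The rising clusters fill the corner that the rule sets, with Narf, Tbc1d7 and Ess2 above the line of equal rises and Scarna17, Mir466d and Cacng7 below it.

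Just inside the limit were Dtx2, with a smaller rise of 0.80 (0.80 in WT, 0.85 in Patl2-KO), Tmem255b (0.80 and 0.95) and Echdc3 (0.80 and 1.40). Just outside were Ap3d1 (0.80 and 0.91), Slc35b4 (0.80 and 1.22) and Espl1, the protease separase that splits sister chromatids (0.80 and 1.16), each with an unrounded WT rise under 0.8. With a limit of 0.6 the rule held for 483 clusters and with a limit of 1 for 109. The number of clusters changed most when the deposited values were quantile-normalized once more, and 989 clusters then met the rule. All 244 members were among those 989. GV arrays had 12383 to 12686 clusters above a level of 7 and MII arrays 11499 to 11745, and the renewed normalization moved the median rise of the 6546 named clusters from 0.11 to 0.48 in WT and from 0.08 to 0.44 in Patl2-KO. The members' median then stood at 1.47 and 1.54. With each array centred on its median, 236 clusters met the rule, 230 of them among the 244. Cyclic loess gave 279 clusters, which held all 244.

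Tjap1, a protein of tight junctions and the Golgi, had the largest rise by the smaller of its values in WT and Patl2-KO. It measured 8.22 and 8.64 in WT GV and 10.90 and 11.40 in WT MII oocytes, and 8.32, 8.11 and 8.12 in Patl2-KO GV and 10.41, 10.61 and 10.94 in Patl2-KO MII oocytes. That is 6.58-fold in WT and 5.55-fold in Patl2-KO, with the stages far apart and the genotypes overlapping at GV. Ly96, the MD-2 partner of the endotoxin receptor TLR4, measured 9.45 and 9.53 at WT GV and 11.16 and 11.32 at WT MII, against 9.23, 9.68 and 9.86, and 11.67, 12.05 and 11.59, in Patl2-KO oocytes. Ubl7, a ubiquitin-like protein, measured 12.13 and 12.82 at WT GV and 14.05 and 14.47 at WT MII. In Patl2-KO oocytes it went from 12.05, 12.30 and 12.18 to 14.77, 14.53 and 14.67, so its MII arrays lay above all WT MII arrays. Others of the 20 largest rises that belong to no group described below were Dnal4, a dynein light chain (1.73 in WT and 1.78 in Patl2-KO), the zinc finger protein Zfp513 (1.70 and 1.61), the phosphatase Lhpp (1.59 and 1.77) and Spryd3 (1.84 and 1.57).

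**Figure D2:**
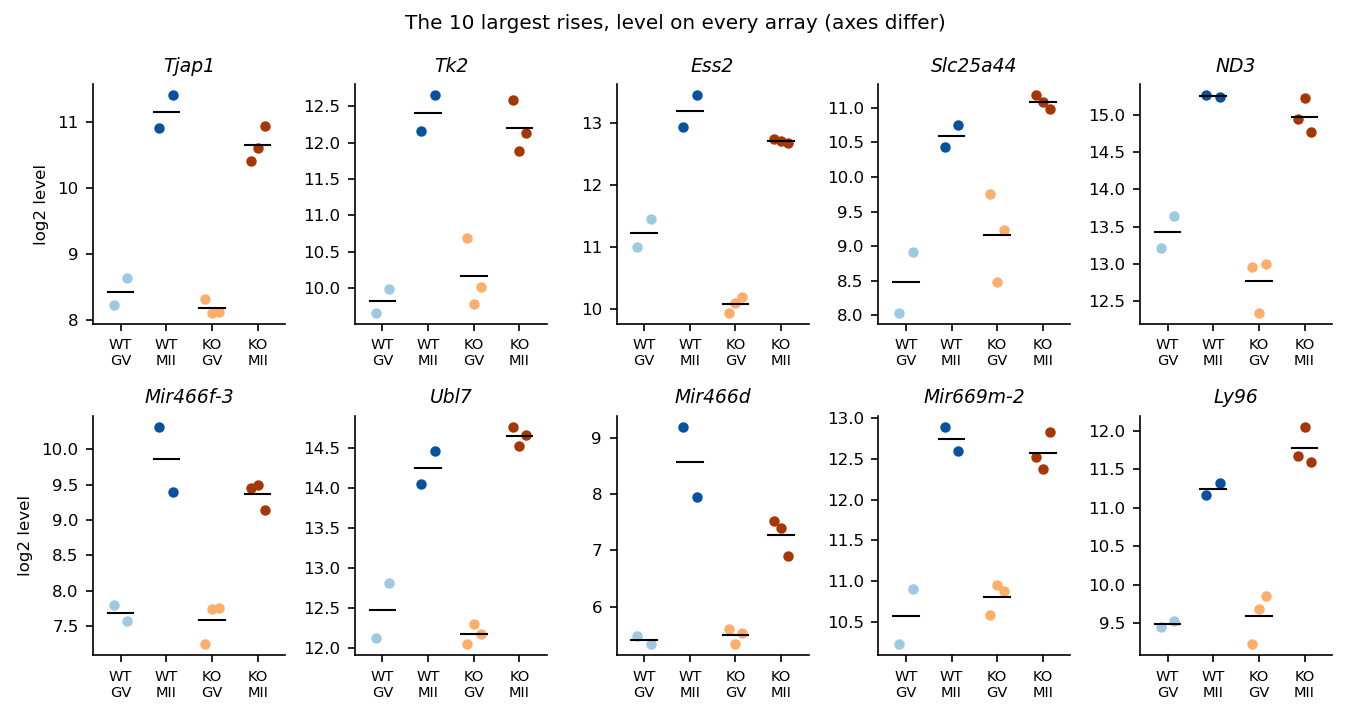
Log2 level on every array for the 10 members with the largest rise by the smaller of its values in WT and Patl2-KO, with points for arrays, bars for group means and KO for Patl2-KO; the y axes differ and do not start at 0. In each panel all MII arrays sit above all GV arrays of their genotype, and Mir466d shows the widest spread among WT MII arrays.

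The members were sorted by known role after their names had been seen, so the groups below are descriptions and carry no test. Of the 244 clusters, 134 fell into at least 1 of 12 groups and 110 into none.

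Transcripts of the mitochondrial genome gave 3 members, and genes of the nucleus that act in mitochondria gave 9. ND3 and ND2 are subunits of respiratory complex I, and mt-Tk is the tRNA for lysine. ND3 measured 13.21 and 13.64 in WT GV, 15.26 and 15.24 in WT MII, 12.96, 12.35 and 13.00 in Patl2-KO GV, and 14.94, 15.22 and 14.77 in Patl2-KO MII oocytes. The rises were 1.83 and 2.21 for ND3, 1.35 and 1.00 for ND2, and 1.18 and 2.31 for mt-Tk, in WT and Patl2-KO. The rise was not shared by all mitochondrial RNA, since the ribosomal RNA mt-Rnr1 changed by -0.31 in WT and 0.12 in Patl2-KO and COX1 by 0.06 and 0.12. Of 30 clusters on the mitochondrial chromosome, 21 had MII above GV without overlap in both genotypes and 1 had it below. Over all clusters these shares were 6.4% and 10.5%. On the mitochondrial chromosome, 14 clusters without a single symbol met all other conditions of the rule. Genes of this small genome are cut from shared precursor RNAs, so the clusters are not independent. Among the nuclear genes, Tk2, the mitochondrial thymidine kinase, measured 9.66 and 9.99 in WT GV and 12.16 and 12.65 in WT MII oocytes, and 10.69, 9.78 and 10.01 in Patl2-KO GV and 12.58, 11.88 and 12.13 in Patl2-KO MII oocytes. The carriers Slc25a44 (rises of 2.12 and 1.92), for branched-chain amino acids, and Slc25a23 (1.52 and 2.42), for ATP and phosphate, followed, with Timm8a2, an import factor (1.66 and 1.28), and Mief1, which shapes fission (1.10 and 1.33). Timm8a1, the close relative of Timm8a2, went the other way, with a stage difference of -2.10 in WT and -2.48 in Patl2-KO.

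Membrane traffic gave 22 members, the joint largest group, with a median rise of 1.09 in WT and 1.15 in Patl2-KO. Sar1b, the GTPase that starts COPII coats at the endoplasmic reticulum, had the highest MII level of all members, going from 14.98 and 14.99 to 15.99 and 15.92 in WT, and from 14.96, 14.99 and 15.30 to 15.90, 15.96 and 15.79 in Patl2-KO oocytes. Rab1b, which acts between the endoplasmic reticulum and the Golgi, went from 9.37 and 10.15 to 11.18 and 11.71 in WT, and from 9.10, 9.34 and 9.77 to 11.59, 11.79 and 12.11 in Patl2-KO oocytes. Its Patl2-KO MII arrays reached above the WT range while its Patl2-KO GV arrays reached below it. By the smaller of the rises, the first in the group were Vps37b, of the ESCRT-I complex that sorts ubiquitinated cargo (1.96 and 1.73), and Vps33b, which serves fusion at endosomes and lysosomes (1.73 and 1.86). Vps33b varied among GV arrays, from 8.07 to 9.24 in WT and from 8.31 to 10.03 in Patl2-KO. The rises were 1.60 and 1.54 for Flot2, a lipid raft protein, and 1.36 and 1.54 for Fcho1, which nucleates clathrin pits.

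The ubiquitin pathway also gave 22 members, with medians of 1.15 in WT and 1.14 in Patl2-KO. Klhdc3, a substrate receptor of cullin ligases, stood at 14.12 and 14.37 in WT GV and 15.45 and 15.70 in WT MII oocytes, and at 14.31, 14.24 and 14.58 against 15.80, 15.59 and 15.54 in Patl2-KO oocytes. It was the second most abundant member at MII. Derl3, of the pathway that removes misfolded proteins from the endoplasmic reticulum, had rises of 1.5 and 1.41, the proteasome subunit Psmd3 1.33 and 1.81, the ligase Mgrn1 1.35 and 1.32, and the CUL3 adaptor Klhl18 1.21 and 2.03. The conjugating enzyme Ube2n had rises of 1.12 and 1.23 and its retrogene relative Ube2nl 1.36 and 1.15, and the array may not part such close copies. Wdtc1 and Ubap2, which bind the ligase machinery or ubiquitin, were not counted in this group. Both were among the 10 most abundant members, with mean MII levels of 15.32 and 15.34.

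Protein phosphatases gave 8 members, among them PP2A-like enzymes, which remove the phosphates that M-phase kinases place. Ppp4c, the catalytic subunit of PP4, measured 10.82 and 11.93 in WT GV and 12.71 and 12.86 in WT MII oocytes, and 10.75, 10.19 and 11.23 in Patl2-KO GV and 12.74, 12.47 and 13.03 in Patl2-KO MII oocytes. Its GV arrays were spread in both genotypes and its MII arrays were close. Ppme1, which demethylates PP2A, had rises of 1.52 and 1.39, the PP2A subunit Ppp2r5b 1.38 and 1.04, the PP1 regulator Ppp1r37 0.92 and 1.27, and the PP6 subunit Ppp6r3 0.91 and 0.93.

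Genes of chromosomes, spindle and cytokinesis gave 12 members. Actr1a, the Arp1 filament subunit of dynactin, led them with rises of 1.70 and 1.60, followed by the kinetochore protein Pmf1 (1.37 and 1.33), the tubulin Tubb3 (1.20 and 1.16), the kinesin Kif18b, which shortens microtubules (1.15 and 1.83), and the helicase Ddx11, which serves cohesion (0.98 and 1.03). Bub1b, the BubR1 protein of the spindle checkpoint, was among the most abundant members. It went from 13.72 and 14.27 to 14.83 and 15.01 in WT, and from 13.76, 13.83 and 13.99 to 14.95, 15.01 and 15.04 in Patl2-KO oocytes, with the genotypes overlapping at both stages.

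RNA processing, translation and decay gave 12 members. Ess2, a protein of the late spliceosome, measured 11.00 and 11.45 in WT GV, 12.93 and 13.44 in WT MII, 9.94, 10.10 and 10.19 in Patl2-KO GV, and 12.74, 12.71 and 12.68 in Patl2-KO MII oocytes. Its Patl2-KO GV arrays lay below all WT GV arrays, and its rise was 1.96 in WT and 2.63 in Patl2-KO. Zmat5, of the minor spliceosome, had rises of 1.45 and 1.81, Khsrp, which binds AU-rich elements, 1.41 and 1.60, the SMAUG protein Samd4b 1.22 and 1.53, and the nuclear export factor Zc3h3 1.18 and 1.33. Transcription and chromatin gave 13 members, led by Phf1, a Polycomb-like partner of PRC2, at 12.97 and 13.62 in WT GV and 15.03 on both WT MII arrays, and at 13.00, 13.11 and 13.39 against 15.07, 14.88 and 14.99 in Patl2-KO oocytes. After it came the E-box factor Usf2 (1.53 and 2.20), the ETS factor Erg (1.12 and 1.13), Vps72 of the SRCAP complex (1.18 and 1.04) and the EGR corepressor Nab2 (1.18 and 0.99).

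Growth and developmental signalling gave 9 members, several of them of the mTOR network. Tbc1d7, a subunit of the TSC complex that restrains mTORC1, measured 9.88 and 10.72 in WT GV and 11.60 and 12.38 in WT MII oocytes, and 9.29, 9.68 and 10.11 in Patl2-KO GV and 12.79, 12.20 and 12.28 in Patl2-KO MII oocytes. Prr5, an mTORC2 subunit, had rises of 1.53 and 1.84, the activin receptor Acvr1b 1.10 and 1.18, Tti1, which helps to fold PI3K-like kinases, 1.01 and 1.30, and the kinase Gsk3a 1.29 and 0.95.

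Oocyte and germ cell genes gave 5 members. Gpr3 and Pde3a act on cAMP, the signal of meiotic arrest: Gpr3 is the receptor that keeps cAMP high and Pde3a the phosphodiesterase that lowers it when meiosis resumes. Gpr3 measured 7.69 and 7.55 at WT GV, 8.31 and 8.55 at WT MII, 7.43, 7.43 and 7.45 at Patl2-KO GV, and 8.17, 8.29 and 8.37 at Patl2-KO MII. Pde3a measured 11.05 and 11.20, then 11.87 and 12.17, in WT, and 11.79, 11.72 and 11.37, then 12.52, 12.43 and 12.78, in Patl2-KO oocytes. Gpr3 sat near the rule's limit, and every Patl2-KO array of Pde3a lay above the WT arrays of its stage. Wbp2nl, known as a sperm protein, had rises of 1.83 and 1.41 with WT GV arrays at 5.36 and 6.83, the germ line protein Tex19.1 1.39 and 2.24, and Gtsf2 0.90 and 1.03.

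Pseudogenes and multicopy genes gave 12 clusters of 8 symbols, on which signal of near-identical copies cannot be parted. E330016L19Rik alone had 13 clusters on the array and 5 among the members, with rises of 1.03 to 1.13 in WT and 0.80 to 0.83 in Patl2-KO. Of pseudogenes with a measured parent gene, Cbfa2t2-ps1 had rises of 1.45 and 1.85 against 0.43 and 0.69 for Cbfa2t2, Akt2-ps 1.00 and 1.30 against 0.28 and 0.40 for Akt2, Eif5al3-ps 1.35 and 0.97 against 0.39 and 0.22 for Eif5a, and Oaz2-ps 1.59 and 0.90 against 0.58 and 0.33 for Oaz2. None of these 4 parents was a member. Rpl29-ps5 had rises of 1.05 and 1.08. Vsig10l was a member with both of its clusters, one of them unplaced, with rises of 1.41 and 1.06 in WT and 1.57 and 1.12 in Patl2-KO.

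**Figure D3:**
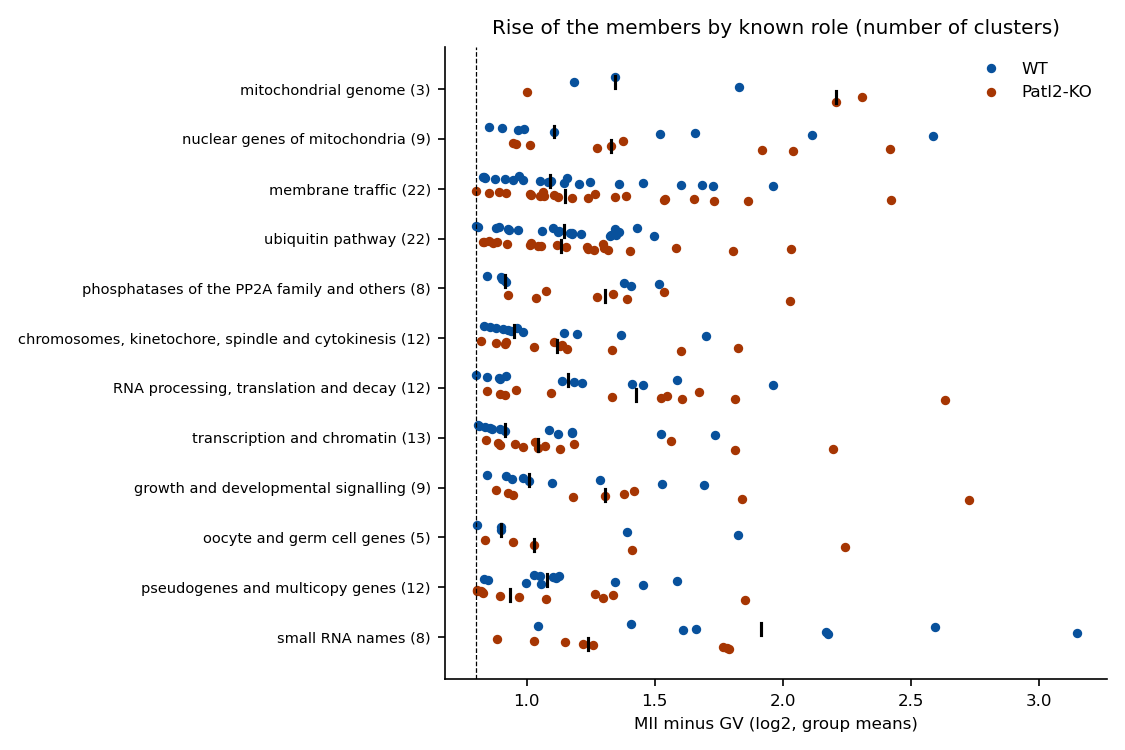
MII minus GV difference of group means (log2) for each member by known role, in WT (blue) and Patl2-KO (brown), with black ticks at the group medians and the dashed line at the limit of 0.8; the number of clusters stands beside each role. Membrane traffic and the ubiquitin pathway hold 22 clusters each, and the small RNA names have the highest WT median, 1.91 against 1.24 in Patl2-KO.

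Members of gene lists of oocyte maturation are set beside the 3.73% of named clusters at the MII level that were members. The lists' counts without overlap are set beside 26.4% of those clusters with MII above GV and 18.2% below. List counts cover every measured gene, whereas these shares cover only clusters that reached the MII level. Only 8 of 31 histones, 6 of 69 small nucleolar and Cajal body RNAs and 2 of 23 immediate early genes reached it. The counts of these 3 lists are therefore not comparable with the shares. Of 19 measured dormant maternal mRNAs that are translated at maturation, Bub1b and Pan2, a deadenylase subunit, were members, 8 had MII above GV without overlap in both genotypes and none below, and the median rise was 0.20 in WT and 0.25 in Patl2-KO. Pan2 went from 12.18 and 12.16 to 12.92 and 13.21 in WT, and from 11.72, 12.05 and 12.01 to 12.82, 12.67 and 12.99 in Patl2-KO oocytes. Btg4, the adaptor that starts maternal mRNA decay, was not a member (0.20 and 0.26), nor was the kinase Mos (-0.09 and 0.39). None of 33 poly(A) tail and translation regulators was a member (8 above and 3 below without overlap). Of 20 decay genes 1 was, Upf1, the helicase of nonsense-mediated decay (0.89 and 1.09), and of 48 meiotic cell cycle genes Bub1b alone (6 above, 10 below). Of 35 ubiquitin ligases and adaptors Siah1b was a member, with rises of 0.89 and 0.83 (6 above, 8 below). Of 45 transcription and chromatin regulators of early embryos the demethylase Kdm4a was a member (0.91 and 1.07; 7 above, 5 below), and of 23 immediate early genes Dusp1. Oocyte-specific genes gave 0 members of 30 (3 above, 11 below) and replication-dependent histones 0 of 31. The Cajal body RNA Scarna17 was the member among 69 small nucleolar and Cajal body RNAs, at 6.20 and 6.08 in WT GV, 8.95 and 8.52 in WT MII, 6.55, 6.65 and 5.99 in Patl2-KO GV, and 7.39, 8.13 and 7.13 in Patl2-KO MII oocytes. Its WT MII arrays lay above all Patl2-KO MII arrays while the genotypes overlapped at GV.

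Markers of other cells were not among the members. Just 1 marker on each list of other cells reached the MII level of the rule. Without overlap in both genotypes, 6.4% of all clusters had MII above GV and 10.5% below. Of 34 measured granulosa and cumulus cell markers, 24 stayed in every group under the 90% level of negative control probes given above, 1 (Cd44, itself under that level) had MII above GV without overlap in both genotypes and 9 had it below, and their summed level was 11.25 to 12.24 in WT GV, 10.79 on both WT MII arrays, 12.23 to 12.51 in Patl2-KO GV and 10.94 to 11.89 in Patl2-KO MII oocytes. The largest stage differences among these markers were falls, -4.08 in WT and -4.90 in Patl2-KO for Ccnd2, and -3.35 and -2.60 for Inha. In Patl2-KO oocytes 3 of the markers, genes of cumulus expansion or steroid synthesis, had a stage difference of at least 0.8. Replicate 2 was the highest MII array for each of the 3. Others on the list did not reach it, such as Has2 (0.11), Ptx3 (0.18), Hsd3b1 (0.14), Star (-0.01) and Hsd17b1 (-1.68). Cyp11a1 measured 5.58, 5.73 and 7.27 at Patl2-KO GV and 6.56, 9.83 and 7.18 at Patl2-KO MII, and Tnfaip6 5.13, 5.14 and 5.15 against 5.86, 7.97 and 6.54. Ptgs2 went from 4.99, 4.75 and 4.95 to 5.52, 6.44 and 5.55, while WT arrays of these 3 genes lay between 5.27 and 6.27. Without Patl2-KO MII replicate 2 the rule held for 234 clusters, 228 of them among the 244. Of 7 oviduct markers, Cdh1, which oocytes express too, was higher at MII, and their sum was 14.63 to 14.81, 14.98 to 15.06, 14.51 to 14.86 and 15.50 to 15.60 in the same order. Of 17 markers of theca, stroma, vessel and blood, 15 lay below that level and none moved without overlap. All 14 oocyte markers were detected, and none was a member. Patl2 itself stood at 11.31 and 7.71 at GV and at 8.64 and 6.37 at MII in WT and Patl2-KO oocytes, as a value for the whole gene that is not limited to the deleted exon.

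A spiked poly-A control was also higher at MII. The bacterial RNA dap measured 6.15 and 6.08 in WT GV, 7.0 and 6.74 in WT MII, 5.45, 6.0 and 5.53 in Patl2-KO GV, and 7.46, 6.81 and 6.91 in Patl2-KO MII oocytes. Its stage difference was 0.76 in WT and 1.40 in Patl2-KO, without overlap, but its GV arrays lay at or under the 90% level of negative control probes, so the size of this difference is uncertain. The other poly-A controls, lys, phe and thr, lay under that level on every array, at 3.58 to 5.95. The mean of the hybridisation controls had a stage difference of 0.01 in WT and of -0.22 in Patl2-KO, where every MII array was below every GV array. In WT all 244 members rose more than dap, whose difference there lay under the rule's limit. In Patl2-KO 66 of 244 members rose more than dap. How dap was added is not stated in the sources used here, and its part in the rises was not tested.

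**Figure D4:**
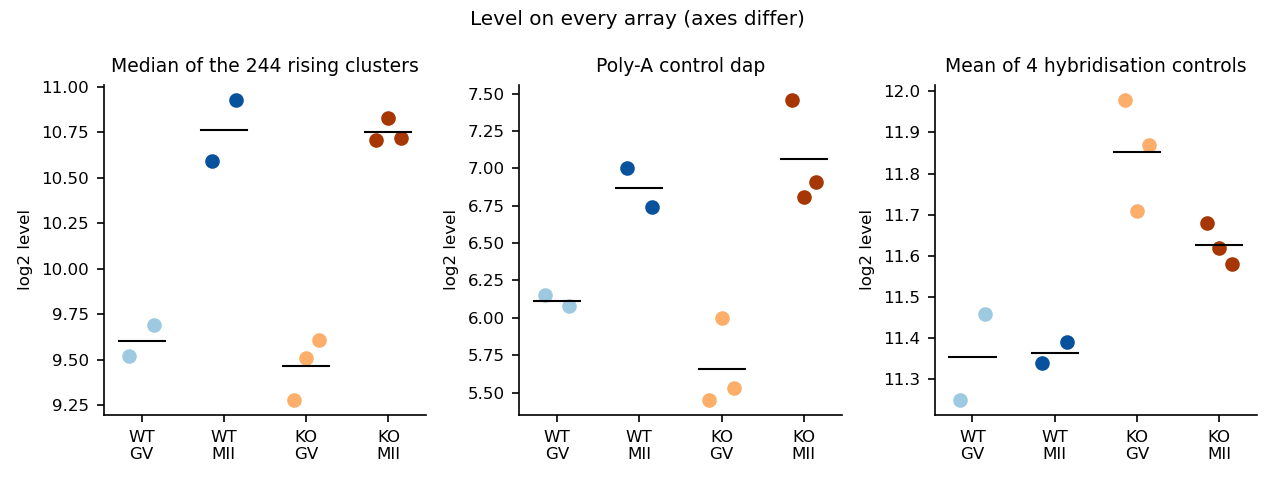
Log2 level on every array of the median over the 244 rising clusters (left), the poly-A control dap (middle) and the mean of 4 hybridisation controls (right), with bars at group means, KO for Patl2-KO, and y axes that differ and do not start at 0. The members' median and dap are higher at MII in both genotypes, and the hybridisation controls are higher in Patl2-KO than in WT at both stages.

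The rises of the genotypes differed by less than 0.5 in 206 of 244 members, and by at least 1 in 6. The median Patl2-KO minus WT difference was 0.05 (range -1.45 to 1.18). The rule required a rise in both genotypes and so left out clusters that rose in only 1 genotype. Similarity of the genotypes is therefore not read from these counts. The rise was larger in Patl2-KO for 149 members and in WT for 95. Larger in Patl2-KO by at least 1 were Narf, a relative of iron-sulphur cluster factors (0.82 in WT, 2.00 in Patl2-KO), mt-Tk and Tbc1d7, and larger in WT were Scarna17, Mir466d and the calcium channel subunit Cacng7 (2.08 and 0.93). These differences use the values that chose the members and were not tested. Among other named clusters at the MII level, 153 met the rise limit in WT but not in Patl2-KO and 244 in Patl2-KO but not in WT.

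The genotypes were then compared at each stage, a contrast that the rule did not use, although it kept to clusters with a level of at least 7 in both genotypes at MII. With limma over all 65956 clusters, no member was higher in Patl2-KO than in WT at GV and 1 was lower at an adjusted p under 0.05, against 0.0303% and 0.091% of all clusters, while 69 members had an unadjusted p under 0.05, a share of 28.3% against 9.23% of all clusters and 26.1% of the named clusters at the MII level. At MII 4 members were higher and 6 lower (0.367% and 0.462% of all clusters). Averaged over both stages, on the same arrays, 8 were higher and 17 lower (0.776% and 1.11%), with median differences over all members of -0.13 at GV, -0.06 at MII and -0.09 averaged. The members' shares, 3.28% higher and 6.97% lower in the average, were near those of the 6546 named clusters at the MII level, 3.82% and 5.26%, so the counts are not a result about the members. Every Patl2-KO array lay below every WT array at both stages in 43 members and above in 13, against 3.37% and 2.88% of all clusters, and 11.8% and 9.30% of the named clusters at the level. Hybridisation controls were higher in Patl2-KO by 0.50 at GV and 0.27 at MII, and their part in the genotype differences was not tested.

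Kctd13, a substrate adaptor of CUL3 ligases, was the only member called at GV, with 10.00 and 10.40 in WT GV, 11.62 and 11.47 in WT MII, 8.90, 9.05 and 8.99 in Patl2-KO GV, and 9.77, 9.98 and 9.97 in Patl2-KO MII oocytes. The genotypes were apart at both stages. Its difference was -1.22 (SE 0.13, adjusted p = 0.026 by limma) at GV and -1.64 (SE 0.13, adjusted p = 0.00775) at MII. Dusp1, an immediate early phosphatase that switches off MAP kinases, measured 11.79 and 12.09 in WT GV, 12.75 and 12.82 in WT MII, 10.40, 10.52 and 11.01 in Patl2-KO GV, and 11.77, 11.78 and 11.60 in Patl2-KO MII oocytes. All its Patl2-KO MII arrays lay below the WT GV arrays, and its difference was -1.06 (SE 0.18, adjusted p = 0.0462) at MII. At MII the other lower members were AA619741 (-1.29), the carrier Slc10a3 (-0.88), Bin3, a BAR domain protein of membranes and actin (-0.87), and Arrdc1, an arrestin-like adaptor for ubiquitin ligases (-0.72), with adjusted p of 0.0208 to 0.046 by limma. In the average over stages, the 8 largest decreases were those of Kctd13 (-1.43), Syde1 (-1.21), Ina, the neurofilament protein internexin (-1.19), Dusp1 (-1.18), AA619741 (-1.14), the Wnt coreceptor Lrp5 (-0.99), mt-Tk (-0.99) and Bin3 (-0.92). mt-Tk differed mostly at GV, -1.55 (SE 0.24, adjusted p = 0.0633) against -0.42 (SE 0.24, adjusted p = 0.539) at MII, and the difference between the stages was not tested. Spire2, the actin nucleator that positions the meiotic spindle (-0.60), Mis18a, which helps to load CENP-A at centromeres (-0.63), and Mau2, a loader of cohesin (-0.42), were called in the average only.

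Higher in Patl2-KO was above all Krt73, a keratin known from the hair follicle. It measured 7.48 and 8.39 in WT GV, 8.54 and 9.72 in WT MII, 9.50, 10.25 and 9.73 in Patl2-KO GV, and 11.40, 11.89 and 11.53 in Patl2-KO MII oocytes. Its Patl2-KO arrays lay above the WT arrays of the same stage, with a difference of 2.48 (SE 0.40, adjusted p = 0.0424 by limma) at MII and 1.89 (SE 0.40, adjusted p = 0.148) at GV. Klhl18, a CUL3 adaptor, stood at 11.10 and 11.24 in WT MII and 11.98, 12.35 and 12.12 in Patl2-KO MII oocytes, a difference of 0.98 (SE 0.16, adjusted p = 0.0442). At GV its genotypes overlapped, at 9.90 and 10.02 against 9.92, 10.42 and 10.01. Kif5c, a kinesin motor for cargo, was higher by 0.86 (SE 0.13, adjusted p = 0.0379) and the RING protein Rnf10 by 0.81 (SE 0.09, adjusted p = 0.0179) at MII. In the average, Krt73 (2.19), Kif5c (0.83), Etnk1, which starts phosphatidylethanolamine synthesis (0.76), Rnf10 (0.63), Tti1 (0.58), Ccni (0.57), Ppp6r3 (0.49) and the Hedgehog inhibitor Sufu (0.38) were called.

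**Figure D5:**
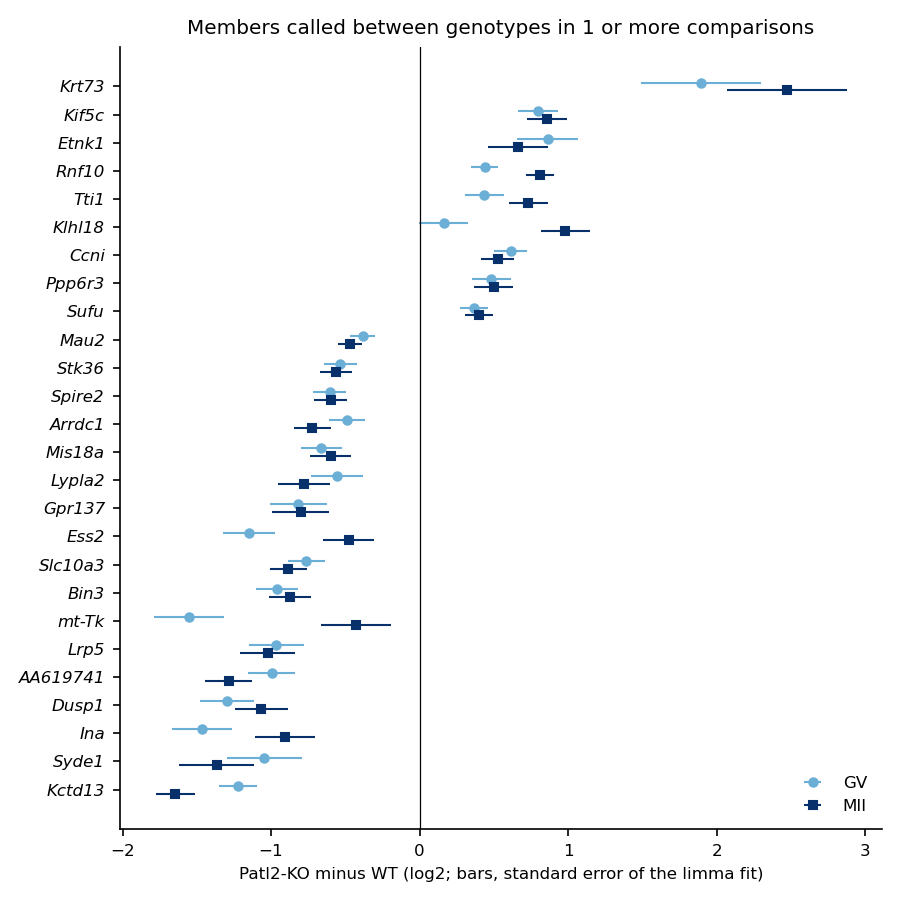
Patl2-KO minus WT difference (log2) at GV (light circles) and MII (dark squares) for the 26 members called in at least 1 of the genotype comparisons, with standard errors of the limma fit. All 26 have the same sign at both stages; Krt73 has the largest positive difference and Kctd13 the largest negative difference at MII.

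These calls rested on few arrays. The GV call of Kctd13 was lost in 8 of 10 fits with 1 array left out, and the MII count fell to 0 without WT MII replicate 1 and was at most 7 in any such fit. It was 4 or 5 without WT GV replicate 1 or 2, WT MII replicate 2, Patl2-KO GV replicate 3 or Patl2-KO MII replicate 1, 2 without Patl2-KO MII replicate 2, and 1 without Patl2-KO MII replicate 3. Averaged over stages, 10 calls were left when WT GV replicate 2 was taken out, 13 when it was WT MII replicate 2, 16 when it was Patl2-KO MII replicate 3, and 17 to 30 for any other array. Kctd13, AA619741, Kif5c, Rnf10, Spire2, Slc10a3, Bin3, Krt73, Dusp1 and Ina kept the averaged call in all 10 fits. That of Ppp6r3 was lost in every one. The averaged calls of Etnk1 and Sufu were lost in 9 fits, those of Tti1 and mt-Tk in 7, and that of Mis18a in 6. That of Syde1 was lost in 5, those of Ccni and Mau2 in 3, and that of Lrp5 in 1. At MII, the calls of Klhl18, Dusp1, Kif5c and Arrdc1 were lost in 9 fits, and that of Bin3 in 8. Those of Krt73 and Slc10a3 were lost in 6 at MII, that of AA619741 in 5, of Rnf10 in 2 and of Kctd13 in 1. With only clusters at a mean level of at least 6 tested, 9, 24 and 47 members were called at GV, at MII and in the average.

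Positions and sequences around the members were compared as descriptions. RefSeq names matched 243 members, 221 of them protein-coding genes. By the chromosome in the cluster's name, chromosome 15 held 21 members among 247 named clusters at the MII level and chromosome 7 held 30 of 440, whereas chromosome 13 held 3 of 261 and chromosome 1 held 5 of 424. Member genes were shorter, with a median span of 22.1 kb against 29.7 kb for other protein-coding genes at the level. Of 2207 next-door pairs of protein-coding genes with both at the level, 152 had at least 1 member and 5 had both: Pmf1 and Slc25a44, Actr1a and Sufu, Ppp6r3 and Lrp5, Fkbp8 and Ell, and Aspscr1 and Cenpx. Ppp6r3 and Lrp5 were members together but differed between genotypes in opposite directions in the average, 0.49 (SE 0.09) against -0.99 (SE 0.13). The averaged call of Ppp6r3 was lost in each of the 10 fits with 1 array left out.

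Promoters of 300 bases, 250 before and 50 after the start, could be matched for 180 member genes. Their median ratio of observed to expected CpG was 0.74, against 0.80 for 4890 other genes at the level and 0.39 for all 27025 promoters in the table. The letters CCAAT, on either strand (ATTGG when read on the other), occurred in 47.2% of member promoters, 40.3% of the other genes at the level and 37.9% of all promoters. GGGCGG, on either strand, occurred in 66.1%, 65.3% and 35.9%, TATAAA in 8.33%, 6.48% and 14.2%, and CACGTG in 10.6%, 10.6% and 7.24%. Promoters of 3 members are shown with CCAAT or ATTGG in capitals: Actr1a and Sufu, neighbours on opposite strands whose starts are 1155 bases apart, and Pan2, which has 3 matches in 300 bases. They lie at chr19:46395692-46395991 (- strand), chr19:46396646-46396945 (+ strand) and chr10:128303085-128303384 (+ strand) of GRCm38.p6.
Actr1a promoter: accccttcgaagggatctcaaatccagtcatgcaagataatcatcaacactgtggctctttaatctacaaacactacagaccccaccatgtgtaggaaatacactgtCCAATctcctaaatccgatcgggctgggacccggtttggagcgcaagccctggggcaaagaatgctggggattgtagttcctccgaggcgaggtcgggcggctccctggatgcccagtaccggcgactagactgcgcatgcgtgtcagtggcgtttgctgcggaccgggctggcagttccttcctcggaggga
Sufu promoter: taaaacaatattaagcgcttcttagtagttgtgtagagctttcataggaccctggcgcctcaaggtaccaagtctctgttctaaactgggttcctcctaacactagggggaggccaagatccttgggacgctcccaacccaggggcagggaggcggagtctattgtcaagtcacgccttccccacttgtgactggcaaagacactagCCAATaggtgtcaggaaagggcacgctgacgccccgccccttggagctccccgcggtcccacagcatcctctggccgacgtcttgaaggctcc
Pan2 promoter: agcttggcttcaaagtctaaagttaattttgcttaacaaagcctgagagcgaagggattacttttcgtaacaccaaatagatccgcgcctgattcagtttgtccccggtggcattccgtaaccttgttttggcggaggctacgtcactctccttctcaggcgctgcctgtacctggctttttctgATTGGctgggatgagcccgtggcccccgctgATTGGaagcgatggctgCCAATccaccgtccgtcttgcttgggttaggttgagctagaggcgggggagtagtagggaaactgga
A match is a description of these letters in this window and not a bound site.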

How the data were processed

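Total RNA of 10 pools of mouse oocytes was measured on 1-colour Affymetrix Clariom D arrays. Per the labels and methods, the authors purified the RNA with a Norgen single cell kit, labelled 250 pg with the WT pico kit, and ran RMA with Affymetrix Expression Console, whose version is not given. RMA corrects background, quantile-normalizes and summarises probes, so the deposited values are log2 levels. Control probes (6732) were left out. Of 65956 clusters, 30638 had 1 gene symbol in the platform annotation, 2176 had several and 33142 none. All 10 arrays entered a linear model of the 4 groups in limma 3.58.1 in R 4.3.3 (eBayes, two-sided, Benjamini-Hochberg over all 65956 clusters, called at an adjusted p under 0.05). 39 clusters had 1 value on all arrays. The functions were tested on simulated data. Figures were drawn with matplotlib 3.10.9.

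The members, gene lists and alternatives were chosen with earlier results of these data known. For lists, a gene with several clusters was represented by its most abundant one. Named members were the 20 largest rises, the 10 highest MII levels, members of a list, up to 8 called members per direction and comparison, 3 clusters on each side of the limit, and up to 5 per functional group by the smaller rise. Others named, such as Spire2, Mis18a and Mau2, were added after their values were seen, as were the spiked controls, the cumulus markers given by array, the parent genes, the mitochondrial clusters and the promoters. The alternatives included a block on replicate number, other scalings, other limits, a level filter, trend and robust estimation, only the compared arrays, the threshold of the study, and leaving out each array. Sequences came from RefSeq GRCm38.p6, as the build of the array is not given in the sources used here.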

Additional observations from a re-analysis of the deposited data

Results flagged for a closer look

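1 member had its genotypes apart without overlap in opposite directions at the stages. Atf6b, a relative of the stress sensor ATF6, was lower in Patl2-KO than in WT by a difference of -0.44 (SE 0.16) at GV and higher by 0.31 (SE 0.16) at MII, with 7.99, 8.51 and 8.22 against 8.66 and 8.71 at GV and 9.72, 9.79 and 9.90 against 9.34 and 9.66 at MII. Neither value was called (adjusted p = 0.408 and 0.494 by limma), and the difference between the stages was not tested. The same pattern held for 1.32% of all clusters and 1.74% of named clusters at the MII level. Groups of 2 or 3 arrays are too small to test for an outlying array.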

How the results depend on the processing

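The number of clusters that met the rule was 483 at a rise of 0.6, 109 at a rise of 1 and 989 after quantile normalization once more, against 244. It stayed within 1.5 times of 244 under the other limits and scalings and with 1 array left out (170 to 325, lowest without WT MII replicate 2 and highest without WT MII replicate 1). Members called between genotypes at GV, at MII and averaged were 1, 10 and 25. With the replicate number as a block, which pairs no samples by any source and whose check gave correlations of deviations from -0.0441 to 0.178, they were 0, 3 and 12. Quantile normalization once more and cyclic loess gave 2 at GV each, and centring on the median 3. A mean level of at least 6 gave 9, 24 and 47, with fewer clusters tested. Trend and robust estimation gave 3 at MII. Only the compared arrays gave 0 at GV and 0 at MII, with fewer arrays in the fit. The study's thresholds, p without adjustment below 0.05 with 2-fold or more, gave 9 at GV, 12 at MII and 6 averaged. They were applied here to the limma p-values, whereas the study used an ANOVA and compared the genotypes within each stage. With 1 array left out, counts ran from 0 to 1 at GV, 0 to 7 at MII and 10 to 30 averaged; where this left a WT group with 1 array, that array was assumed to vary like the others. Other causes of these shifts were not tested. Arrays give no count depth, and at GV some members, such as Mir466d, lay among the negative control probes.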
